A study of Homo sapiens with 6 samples.

Results

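The genes described here are 41 genes of the cytosolic and mitochondrial protein folding machinery, taken by symbol from a table of 23459 genes. They comprise HSP70 and HSP90 chaperones, the mitochondrial chaperonin, small heat shock proteins, J-domain and BAG proteins, co-chaperones, the transcription factor HSF1, the CCT chaperonin and prefoldin. The rule names genes and uses no measured value, but the list was chosen with earlier results of these data known. All 41 genes were in the table. RNA came from MCF10A, a human mammary epithelial line that is not transformed, which had been transfected with 20 nM of siRNA. The control libraries (siCtrl, n = 3) received control siRNA, and the knockdown libraries (siYAP/TAZ, n = 3) received siRNA against YAP and its paralogue TAZ (gene WWTR1), the transcriptional coactivators restrained by the Hippo pathway. All cells carried the label WT and grew in DMEM/F12 with horse serum, insulin, hydrocortisone, cholera toxin and EGF. The comparison therefore rests on 1 cell line, and the time between transfection and harvest is not given in the sources used here. Libraries were made by 3′ mRNA sequencing, which counts reads near the end of a transcript.

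Chaperones bind unfolded or partly folded proteins. HSP70 proteins bind short hydrophobic stretches in a cycle of ATP hydrolysis that J-domain proteins start and nucleotide exchange factors such as BAG proteins end, and HSP90 acts later on kinases and steroid receptors handed over by the co-chaperone STIP1. The CCT chaperonin, a barrel of stacked rings, folds actin and tubulin, which prefoldin delivers to it. Many genes of the cytosolic HSP70 and HSP90 system are induced by heat or proteotoxic stress through HSF1, which binds heat shock elements, inverted repeats of the unit nGAAn, in their promoters.

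The promoters are shown because the heat shock element is a sequence that part of these genes share. RefSeq promoters (GRCh38.p14) were available for 36 of the 41 genes, and the 250 bases before each start site were searched on both strands. The RefSeq start site can lie inside the gene span printed further below, as in HSP90AA1 and HSP90AB1. A promoter window therefore need not precede that span. The element of 3 units, GAANNTTCNNGAA or its reverse complement, was present in 6 of the 36 promoters (16.7%), against 0.441% of all 35116 promoters of the same length. The shorter inverted pair GAANNTTC, which lies within every 3-unit element, was present in 14 of the 36 (38.9%) and in 5.78% of all promoters. By contrast, the TEAD motif GGAATG, for the DNA-binding partners of YAP and TAZ, was found in 4 of the 36 (11.1%, in STIP1, AHSA1, PFDN4 and PFDN6) and in 11.9% of all promoters. The AP-1 motif TGANTCA was found in 1 of the 36 (2.78%, in BAG3) and in 6.57% of all. These are exact matches of letters in a short window and not sites shown to be bound. An element with a differing base, or one outside the window, is not counted, so a gene without a match may still hold one.

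The 3-unit elements are printed 5′ to 3′ on the strand of the gene, with the element in capitals. Their positions were found by exact match of the RefSeq promoter to GRCh37 (hg19), the build of the deposited counts. HSPD1 holds overlapping elements in 1 run, as does CHORDC1. The HSPD1 run also lies shortly before chr2:198364864, where the span of the neighbouring gene HSPE1 begins. The RefSeq window of HSPE1 itself held 0 elements.
HSPA8, chr11:122933056-122933080, minus strand: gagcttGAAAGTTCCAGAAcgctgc
HSPA8, chr11:122932881-122932905, minus strand: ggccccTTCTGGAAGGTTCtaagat
HSP90AA1, chr14:102553451-102553475, minus strand: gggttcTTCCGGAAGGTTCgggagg
HSP90AB1, chr6:44215509-44215533, plus strand: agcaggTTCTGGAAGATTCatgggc
HSP90AB1, chr6:44215562-44215586, plus strand: agattgTTCTGGAAGCTTCtggatt
HSPD1, chr2:198364786-198364814, minus strand: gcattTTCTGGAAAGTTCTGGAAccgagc
DNAJB6, chr7:157129561-157129585, plus strand: agccgaGAACCTTCGCGAAggtggg
CHORDC1, chr11:89956252-89956280, minus strand: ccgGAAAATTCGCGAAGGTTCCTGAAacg

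Whole promoter windows are given for HSPB1 and HSP90AA1, the genes with the highest and the lowest fold change among the chaperone genes tested, and for the near-identical copies HSPA1A and HSPA1B. Capitals mark the inverted pair, or in HSP90AA1 the 3-unit element that contains it. The HSPA1A and HSPA1B windows matched at 235 of 249 aligned bases (94.4%).
HSPB1, chr7:75931740-75931989, plus strand: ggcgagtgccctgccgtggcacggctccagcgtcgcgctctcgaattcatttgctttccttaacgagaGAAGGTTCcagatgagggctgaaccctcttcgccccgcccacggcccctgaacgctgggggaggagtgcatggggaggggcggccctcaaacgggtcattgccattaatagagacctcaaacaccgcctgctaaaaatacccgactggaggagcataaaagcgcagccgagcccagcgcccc
HSP90AA1, chr14:102553382-102553631, minus strand: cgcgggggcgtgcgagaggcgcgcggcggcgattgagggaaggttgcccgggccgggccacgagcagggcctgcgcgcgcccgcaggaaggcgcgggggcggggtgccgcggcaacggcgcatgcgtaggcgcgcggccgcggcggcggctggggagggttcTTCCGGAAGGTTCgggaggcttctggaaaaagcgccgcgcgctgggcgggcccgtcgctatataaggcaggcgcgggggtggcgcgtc
HSPA1A, chr6:31783070-31783319, plus strand: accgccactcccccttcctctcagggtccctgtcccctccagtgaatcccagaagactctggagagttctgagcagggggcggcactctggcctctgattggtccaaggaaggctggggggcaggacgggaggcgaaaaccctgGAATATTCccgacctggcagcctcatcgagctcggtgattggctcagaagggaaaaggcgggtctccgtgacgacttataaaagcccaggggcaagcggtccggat
HSPA1B, chr6:31795265-31795514, plus strand: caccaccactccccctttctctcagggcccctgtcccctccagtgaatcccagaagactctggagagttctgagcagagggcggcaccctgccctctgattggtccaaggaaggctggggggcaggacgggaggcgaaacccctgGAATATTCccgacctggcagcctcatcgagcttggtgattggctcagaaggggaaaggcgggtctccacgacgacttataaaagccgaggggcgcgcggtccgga

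Total counts ran from 3175149 to 4317286 per library. The targeted genes were lower in the libraries named siYAP/TAZ in their description and count column, YAP1 at 115 ± 3.25 CPM against 201 ± 11.1 (SD, n = 3; log2 fold change −0.80, adjusted p = 0.0138) and WWTR1 at 65.8 ± 5.44 against 106 ± 4.02 (−0.69, adjusted p = 0.0311). CPM are counts scaled to library size with TMM factors, and adjusted p values come from the quasi-likelihood F test of edgeR, adjusted after Benjamini and Hochberg over all 12510 genes tested. For 2 libraries, siCtrl replicate 2 and siYAP/TAZ replicate 2, the title names the opposite group. The description was followed, and in both libraries YAP1 and WWTR1 were at the level of the group it names. The titles also number siCtrl replicates 2 and 3 and siYAP/TAZ replicates 1 and 2 differently from the description. Replicate numbers here are those of the description, and all same-numbered pairs rest on them. Which numbering is right was not tested. The basal mammary markers summed to between 3587 and 4275 CPM in siCtrl and between 2500 and 3016 in siYAP/TAZ, with 7 of the 10 below 0 in log2 fold change and TP63 at 0.58 (adjusted p = 0.0379 with the replicate number as a block). General epithelial markers summed to between 860 and 1289 CPM in siCtrl and between 1147 and 1375 in siYAP/TAZ. Fibroblast markers summed to between 179 and 213 CPM in siCtrl and between 163 and 187 in siYAP/TAZ, mostly PDGFRA, with COL1A2 and COL3A1 at 0 and FAP at a log2 fold change of −2.09 without overlap (adjusted p = 0.0875, or 0.00054 with the block), and leukocyte markers to between 3.26 and 10.2 CPM, with LYZ among those at 0. Endothelial markers summed to between 2.26 and 4.01 CPM in siCtrl and between 5.67 and 12.9 in siYAP/TAZ, and the part of these differences in the chaperone results was not tested. In such bulk RNA, fewer cells of a type and less RNA per cell cannot be told apart.

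Most chaperone genes were measured lower after YAP/TAZ knockdown, but by small amounts, and none passed the test with all 6 libraries treated as independent. Of the 41 genes, 39 had enough counts to be tested. Their log2 fold change (siYAP/TAZ over siCtrl) was below 0 in 31 of the 39 (50.1% of all genes) and above 0 in 8 (49.9% of all genes), and their median was −0.25, against −0.00093 over all genes. At an adjusted p under 0.05, 0 of 39 were lower and 0 higher, where 1.22% of all genes were called lower and 0.743% higher. At an unadjusted p under 0.05, 10 were lower and 2 higher, where 9.27% and 8.4% of all genes were. The closest to the threshold were PFDN2 (adjusted p = 0.0518) and HSPB1 (adjusted p = 0.0774). Of the 39 tested genes, 0 had a fold change of 2-fold or more, against 4.8% of all genes.

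Deviations from the group means correlated between same-numbered libraries, least in replicate 3 (r = 0.416, 0.345 and 0.129 for replicates 1, 2 and 3). Libraries of unlike number were not compared for this. The test was also run with the replicate number of the description as a block. With the block, 6 of the 39 were lower (HSP90AA1, HSP90AB1, HSPE1, TCP1, CCT5 and PFDN2), where 5.44% of all genes were called lower. Only HSPB1 was higher with the block, 1 of 39, where 4.66% of all genes were called higher. These 7 genes span the cytosolic HSP90 pair, the mitochondrial chaperonin, the CCT ring, prefoldin and the small heat shock proteins. In 8 of the 39, every siYAP/TAZ library lay below every siCtrl library, and in 3 every one lay above, against 11.1% and 11% of all genes. In all 3 same-numbered pairs, 14 were lower and 5 higher in the knockdown library, against 22.8% and 23.3% of all genes. DESeq2, a second count test, called 2 of the 39 lower (HSP90AB1 and PFDN2) and 1 higher (HSPB1). It called 1.71% lower and 1.3% higher of 19181 genes. That set includes low-count genes outside the 12510 tested with edgeR, so these shares are not on a like set. Some of its genes, such as HSPB8, had no adjusted p and could not be called, which lowers the shares.

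**Figure D1:**
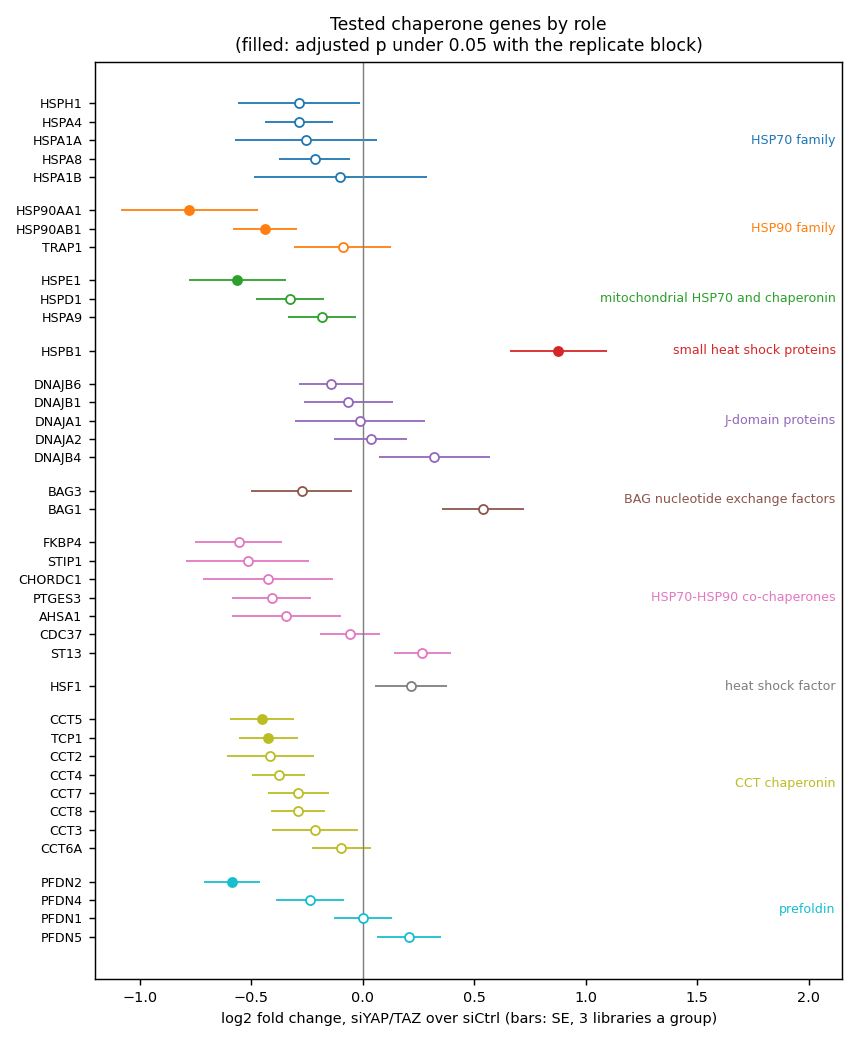
The log2 fold change (siYAP/TAZ over siCtrl, x axis) is plotted for the 39 tested genes, grouped by role, with bars of 1 SE from 3 libraries per group. Filled circles have an adjusted p under 0.05 with the replicate block; 31 of the 39 points lie below 0, and HSPB1 stands highest at 0.88.

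HSP90AA1 and HSP90AB1 encode the stress-inducible and the constitutive cytosolic HSP90. HSP90AA1 (chr14:102547079-102606036, GRCh37) was at 4126, 1756 and 3329 CPM in siCtrl replicates 1, 2 and 3 and at 2303, 1375 and 1696 in siYAP/TAZ. In siCtrl, replicate 2 was far below the other libraries and inside the range of siYAP/TAZ, so the groups overlapped. The mean was 3070 ± 1206 CPM in siCtrl and 1791 ± 471 in siYAP/TAZ, a log2 fold change of −0.78 ± 0.31 (SE) with adjusted p = 0.234. Each siYAP/TAZ library was nevertheless lower than its same-numbered control, by log2 ratios of −0.84, −0.35 and −0.97, and with the block the change was −0.72 ± 0.13 (adjusted p = 0.00708). HSP90AB1 (chr6:44213903-44221625) was at 2044, 1799 and 1871 CPM in siCtrl and at 1416, 1411 and 1391 in siYAP/TAZ. The groups did not overlap, and the siYAP/TAZ libraries were within 1.02-fold of each other. Its log2 fold change was −0.44 ± 0.14 (adjusted p = 0.158; 0.0255 with the block). TRAP1, the mitochondrial HSP90, had a log2 fold change of −0.09 ± 0.22 (adjusted p = 0.867), with overlapping groups, and some of its exonic sequence lies opposite DNASE1.

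**Figure D2:**
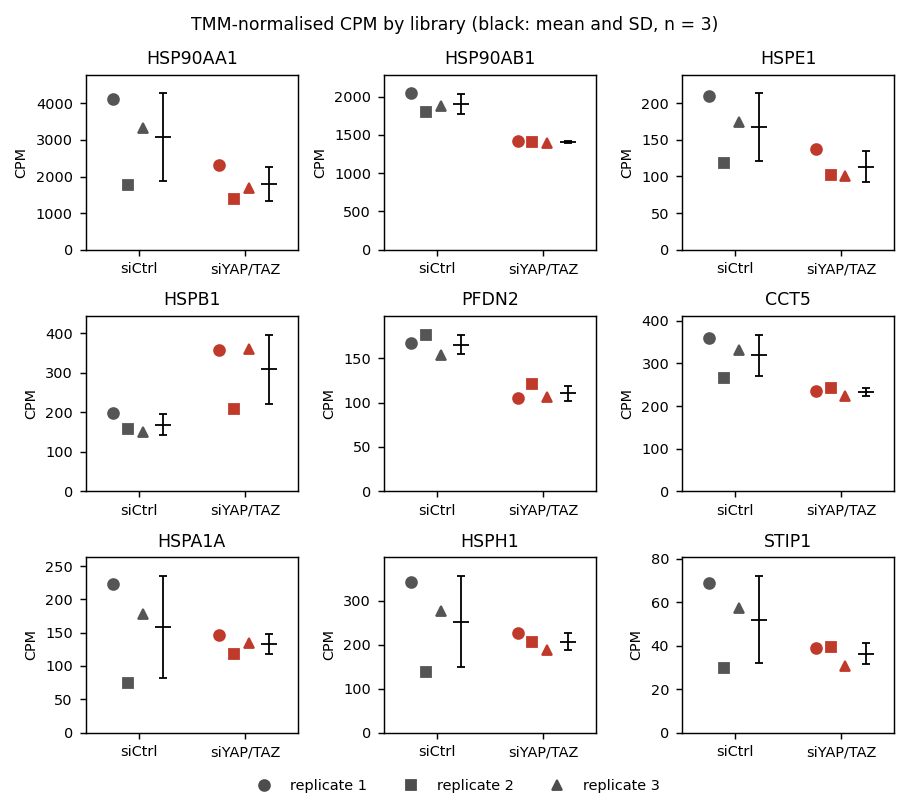
TMM-normalised CPM (y axis, from 0) in each library of both groups is shown for 9 of the genes, with symbols for the replicate number and black bars for the mean and SD (n = 3). HSP90AB1, PFDN2, CCT5 and HSPB1 do not overlap between groups, whereas in HSPA1A, HSPH1 and STIP1 siCtrl replicate 2 lies below all other libraries.

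The mitochondrial chaperonin is formed by HSPD1 (HSP60) and its co-chaperonin lid HSPE1 (HSP10), whose genes lie head to head on chromosome 2 and share 135 exonic bases on opposite strands. HSPE1 (chr2:198364864-198368173) was at 210, 118 and 174 CPM in siCtrl and at 138, 101 and 101 in siYAP/TAZ. Replicate 2 was again the lowest control and lay within the siYAP/TAZ range. Its log2 fold change was −0.56 ± 0.22 (adjusted p = 0.222), and with the block −0.55 ± 0.13 (adjusted p = 0.0259). Reads in HSPE1 may also count for the readthrough gene HSPE1-MOB4, whose counts were 139 to 181% of those of HSPE1. HSPD1 (chr2:198351308-198381461) was at 504, 406 and 403 CPM in siCtrl and at 364, 379 and 305 in siYAP/TAZ, without overlap. Its change of −0.33 ± 0.15 did not pass either test (adjusted p = 0.300; 0.105 with the block). HSPA9, the mitochondrial HSP70, had a log2 fold change of −0.18 ± 0.15 (adjusted p = 0.580).

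All 5 cytosolic HSP70 genes had log2 fold changes below 0, from −0.29 to −0.10, and 0 of 5 passed the test in all 6 libraries, with or without the block. HSPA1A, the heat-inducible HSP70, was at 223, 74.7 and 178 CPM in siCtrl and at 146, 118 and 135 in siYAP/TAZ. The controls thus differed by 2.99-fold among themselves, with siCtrl replicate 2 below every knockdown library. Its change was −0.25 ± 0.32 (adjusted p = 0.727), and it was 0.071 without siCtrl replicate 1 and −0.59 without siCtrl replicate 2. HSPA1B, which encodes a nearly identical protein from the neighbouring gene, was at 56.6, 17.3 and 34.2 CPM in siCtrl and at 46.9, 23.8 and 29.4 in siYAP/TAZ. It showed the widest control spread of the tested chaperone genes, 3.27-fold, and its change was −0.10 ± 0.39 (adjusted p = 0.920). Because reads can be split between these copies, their separate values are uncertain. HSPH1 (HSP110, an exchange factor for HSP70) was at 342, 139 and 276 CPM against 228, 206 and 188, with a change of −0.29 ± 0.27 (adjusted p = 0.634). The constitutive HSPA8 (−0.22 ± 0.16, adjusted p = 0.521) and the HSP110-related HSPA4 (−0.29 ± 0.15, adjusted p = 0.367) varied less among controls, by 1.41-fold and 1.42-fold.

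HSPB1 (HSP27, a small heat shock protein that holds unfolded proteins without ATP and binds actin) was measured in the opposite direction from most of the others. It lies at chr7:75931990-75933612 and was at 198, 158 and 150 CPM in siCtrl and at 358, 208 and 361 in siYAP/TAZ. Every knockdown library lay above every control, replicate 2 by the least. The mean was 168 ± 26.1 CPM in siCtrl and 309 ± 87.5 in siYAP/TAZ, and the log2 fold change was 0.88 ± 0.22 (adjusted p = 0.0774) and, with the block, 0.85 ± 0.15 (adjusted p = 0.00712). The other small heat shock gene of the list, HSPB8, was read 0, 0 and 1 times in the siCtrl libraries and 1, 1 and 2 times in the siYAP/TAZ libraries, which is too few for a test.

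The J-domain genes, which set the ATPase cycle of HSP70 going, summed to 310 ± 56.6 CPM in siCtrl and 304 ± 27.8 in siYAP/TAZ. Their log2 fold changes ran from −0.14 (DNAJB6) to 0.32 (DNAJB4), and 0 of 5 passed either test. DNAJA1, a main partner of cytosolic HSP70, was at 106, 39.8 and 76.4 CPM in siCtrl and at 73.7, 64.8 and 82.4 in siYAP/TAZ, a change of −0.01 ± 0.29 that turned to 0.058 with the block. DNAJB4 was at 25.6, 33.3 and 16.3 CPM against 34.5, 29.7 and 29.1 (0.32 ± 0.25, adjusted p = 0.544). DNAJB1 (−0.06 ± 0.20) and DNAJA2 (0.04 ± 0.16) had SEs larger than their changes.

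Among the nucleotide exchange factors, BAG1 was measured higher in all 3 pairs. It was at 31.0, 26.5 and 27.9 CPM in siCtrl and at 37.8, 50.9 and 35.9 in siYAP/TAZ, without overlap, with a change of 0.54 ± 0.18 (adjusted p = 0.171; 0.0874 with the block). BAG3, which joins HSP70 to selective autophagy and small heat shock proteins, was at 82.1, 49.7 and 54.5 CPM in siCtrl and at 59.8, 39.0 and 54.7 in siYAP/TAZ (−0.27 ± 0.23, adjusted p = 0.576). The difference between both BAG genes was not tested.

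Of the 7 co-chaperones that link HSP70 and HSP90, 6 had log2 fold changes below 0, with a median of −0.41. FKBP4 (FKBP52, a steroid receptor co-chaperone) was at 89.9, 54.6 and 84.2 CPM in siCtrl and at 49.4, 57.5 and 49.0 in siYAP/TAZ (−0.56 ± 0.20, adjusted p = 0.185). STIP1 (HOP, the HSP70 to HSP90 adaptor) was at 68.6, 29.6 and 57.3 CPM against 39.0, 39.3 and 30.7 (−0.52 ± 0.28, adjusted p = 0.365). PTGES3 (p23, which binds closed HSP90) was at 496, 315 and 427 CPM against 342, 294 and 298 (−0.41 ± 0.18, adjusted p = 0.273). In all 3, siCtrl replicate 2 lay within or below the range of the knockdown libraries while the other controls lay above it. CHORDC1 (−0.42 ± 0.29) and AHSA1, the activator of the HSP90 ATPase (−0.34 ± 0.24), followed the same order of control libraries. A pseudogene of CHORDC1 had 501 counts over the libraries against 1229 for CHORDC1 (40.8%), so the reads behind CHORDC1 are uncertain. The kinase adaptor CDC37 differed by −0.06 ± 0.14 (adjusted p = 0.866). ST13 (HIP), which steadies the ADP-bound form of HSP70, was the exception at 165, 182 and 162 CPM in siCtrl and 184, 218 and 210 in siYAP/TAZ. Its groups did not overlap, and its change was 0.27 ± 0.13 (adjusted p = 0.312; 0.156 with the block).

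HSF1, the factor that drives many of these genes under stress, was at 43.4, 45.1 and 47.2 CPM in siCtrl and at 43.7, 53.9 and 60.4 in siYAP/TAZ. The lowest knockdown library lay among the controls, and the change was 0.22 ± 0.16 (adjusted p = 0.521). HSF1 shares 137 exonic bases with DGAT1 on the opposite strand, and DGAT1 had 81.5 to 106% of its counts, so that its reads cannot be assigned with certainty when strand use in counting is not stated.

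All 8 CCT subunits were measured lower, with log2 fold changes from −0.45 to −0.10 and a median of −0.33, and in 5 of the 8 (TCP1, CCT4, CCT5, CCT7 and CCT8) the groups did not overlap, with siYAP/TAZ the lower, against 11.1% of all genes. Summed over the complex, expression was 2219 ± 278 CPM in siCtrl and 1791 ± 66.1 in siYAP/TAZ, 80.7% of the control. CCT5 (chr5:10250041-10266501) was at 360, 266 and 332 CPM against 235, 242 and 224, a change of −0.45 ± 0.14 (adjusted p = 0.149; 0.0477 with the block). TCP1, the alpha subunit (chr6:160199530-160210735), was at 348, 306 and 392 CPM against 257, 260 and 263 (−0.42 ± 0.13, adjusted p = 0.147; 0.0430 with the block). CCT4 was at 210, 199 and 199 CPM against 163, 159 and 146, with controls within 1.05-fold of each other (−0.38 ± 0.12, adjusted p = 0.143; 0.0515 with the block). These 3 subunits differed from the controls by similar amounts and lie on both sides of the threshold with the block.

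TCP1 overlaps ACAT2, a cholesterol-pathway thiolase on the opposite strand, over 454 exonic bases. The counts of ACAT2 were 87.9 to 93.8% of those of TCP1 in every library and its log2 fold change was −0.43, so that the reads behind TCP1 are uncertain. The other CCT subunits gave smaller or more variable values. CCT2 was at 386, 223 and 363 CPM in siCtrl and at 254, 237 and 240 in siYAP/TAZ (−0.41 ± 0.20, adjusted p = 0.309), and CCT3 was at 352, 211 and 295 CPM against 284, 234 and 221 (−0.22 ± 0.19). In both, siCtrl replicate 2 was the lowest of all 6 libraries. CCT7 was at 103, 92.9 and 102 CPM against 81.1, 90.9 and 71.3, and CCT8 at 236, 232 and 246 CPM against 185, 212 and 189, each with a change of −0.29. CCT6A was at 431, 372 and 399 CPM against 403, 346 and 376, the smallest change of the complex (−0.10 ± 0.13, adjusted p = 0.755).

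The tested prefoldin subunits had values in both directions. PFDN2 (chr1:161070346-161087845) was at 167, 176 and 154 CPM in siCtrl and at 105, 121 and 106 in siYAP/TAZ. The groups were well apart, and the log2 ratios of the 3 pairs were −0.67, −0.54 and −0.54. Its change of −0.58 ± 0.13 had adjusted p = 0.0518, and 0.00868 with the block. PFDN1 was at 56.6, 60.8 and 58.3 CPM against 57.6, 57.5 and 60.6, a change of 0.00083 ± 0.13. PFDN4 was at 82.1, 88.3 and 76.4 CPM against 62.1, 64.1 and 83.2 (−0.24 ± 0.15), and PFDN5 at 52.3, 60.2 and 54.5 CPM against 57.6, 63.5 and 71.8 (0.21 ± 0.14). PFDN6 had between 1 and 13 counts per library and was not tested. The difference between subunits was not tested.

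**Figure D3:**
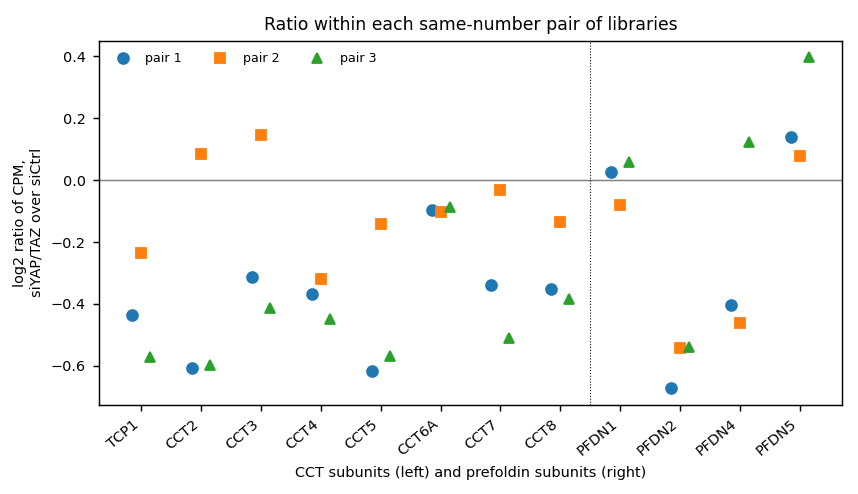
The log2 ratio of CPM (siYAP/TAZ over siCtrl, y axis) within each pair of same-numbered libraries is plotted for 8 CCT and 4 tested prefoldin subunits. PFDN2 lies between −0.67 and −0.54 in all 3 pairs, and in CCT2 and CCT3 pair 2 lies above 0 while the other pairs lie below.

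The control libraries were more spread than the knockdown libraries over the whole table as well as in these genes. The SD of CPM was larger in siCtrl than in siYAP/TAZ for 29 of the 39 genes, against 60.8% of all genes. In 8 of the 39 the siCtrl libraries were over 2-fold apart (16.7% of all genes), and in 0 of the 39 the siYAP/TAZ libraries were (9.62% of all genes). These 8 were HSPA1A, HSPA1B, HSPH1, HSP90AA1, DNAJA1, DNAJB4, STIP1 and CHORDC1. The siCtrl library of replicate 2 was the lowest control in 28 of the 39 (71.8%), against 39.7% of all genes. The siYAP/TAZ library of replicate 2 was the lowest of its group in 15 of the 39 (38.5%), against 36.3% of all genes, and 12 of the 39 had their lowest value in replicate 2 in both groups (30.8%), against 19.2%. In the fit with the block, the replicate numbers themselves differed in HSP90AA1 (adjusted p = 0.0311) and HSPA1B (adjusted p = 0.0322), 2 of 39, against 1.81% of all genes.

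**Figure D4:**
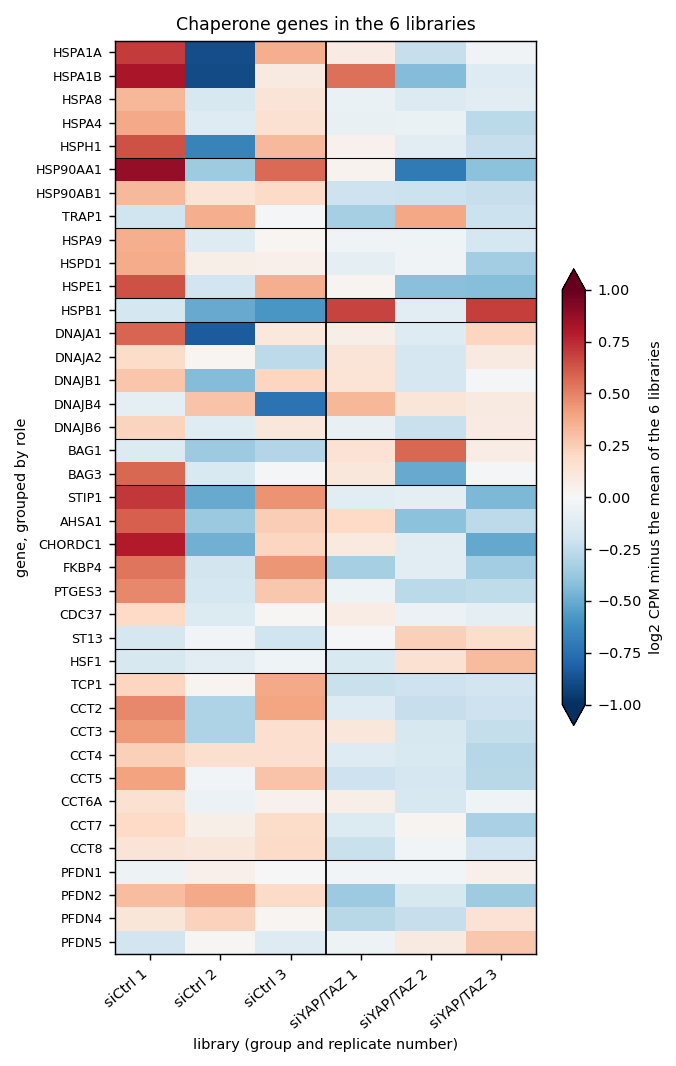
Each cell shows log2 CPM of a tested gene (rows, grouped by role) in a library (columns) minus the gene's mean over the 6 libraries, from blue (lower) to red (higher). All 5 HSP70 rows are blue in siCtrl 2 and red in siCtrl 1 and siCtrl 3, whereas HSP90AB1 and TRAP1 are red in siCtrl 2.

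Values without siCtrl replicate 2 are given because it is 1 of the libraries with conflicting labels and was the lowest control in 28 of the 39 genes. Leaving it out raises the control mean of those 28 genes by construction, so the counts that follow describe how far the result rests on this library and are not a separate test of the genes. Without it, 12 of 39 genes were lower, where 6.22% of all genes were called lower, and 1 was higher, where 6.08% were. The median of the chaperone genes was then −0.37, against 0.013 over all genes. The 12 were HSP90AA1, HSP90AB1, HSPE1, TCP1, CCT5 and PFDN2, the genes called lower with the block, together with HSPA1A, HSPH1, STIP1, FKBP4, PTGES3 and CCT2. HSP90AA1 had a log2 fold change of −1.06 ± 0.21 (adjusted p = 0.0108), STIP1 of −0.79 ± 0.17 (adjusted p = 0.0139), FKBP4 of −0.74 ± 0.14 (adjusted p = 0.00895), and HSPA1A was at −0.59 ± 0.15 (adjusted p = 0.0266). HSPB1 was higher by 0.84 ± 0.23 (adjusted p = 0.0398). With both replicate 2 libraries left out, 7 were lower and 1 higher, where 4.64% and 4.65% of all genes were called. HSP90AA1, HSPE1, STIP1, FKBP4, CCT2, CCT5 and PFDN2 were the 7, and HSPB1 was the gene that was higher (1.05, adjusted p = 0.00474).

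**Figure D5:**
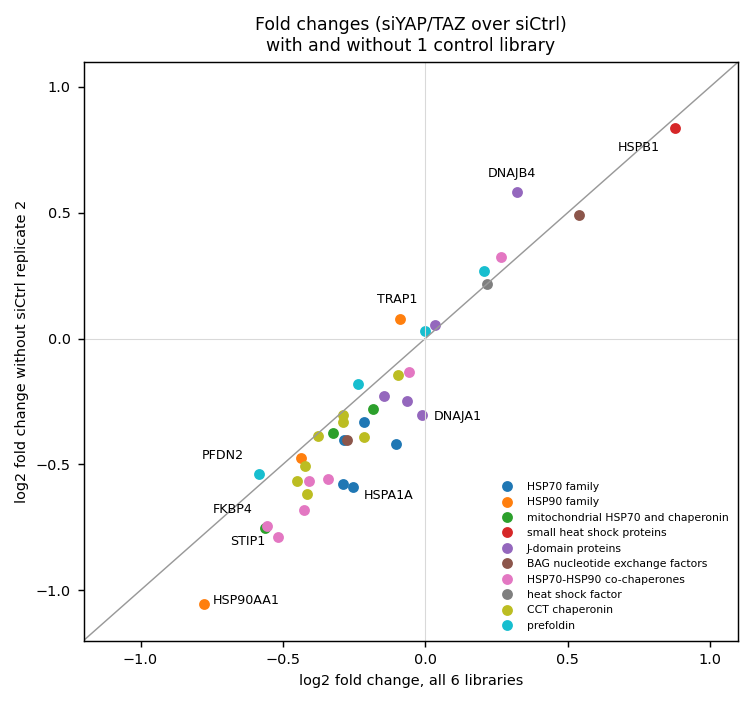
The log2 fold change without siCtrl replicate 2 (y axis) is plotted against that with all 6 libraries (x axis) for the 39 tested genes, coloured by role, with the line of equality. HSP90AA1 moves from −0.78 to −1.06 and HSPA1A from −0.25 to −0.59, whereas HSPB1 (0.88 and 0.84) and PFDN2 (−0.58 and −0.54) stay near the line.

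Other folding genes outside the list gave 0 calls in the test of all 6 libraries as independent. Among 39 tested of 51 listed cytosolic chaperones and co-chaperones, 4 were lower and 1 higher at an unadjusted p under 0.05, where 9.27% and 8.4% of all genes were, and with the block 1 was lower and 1 higher, where 5.44% and 4.66% were. FKBP5 (FKBP51, an HSP90 co-chaperone of the glucocorticoid receptor and relative of FKBP4) was at 478, 858 and 519 CPM in siCtrl and at 918, 976 and 901 in siYAP/TAZ (0.59 ± 0.22, adjusted p = 0.207; 0.0201 with the block). Here siCtrl replicate 2 was the highest control and stood near the knockdown libraries, and without it the change was 0.90 (adjusted p = 0.0031). HSPA14, a ribosome-associated HSP70, differed by −0.33 ± 0.14 (adjusted p = 0.256). BAG2, an inhibitor of the HSP70-bound ubiquitin ligase CHIP, was the gene lower with the block (−0.46, adjusted p = 0.0378). Among 13 tested of 14 listed partners of CCT and prefoldin, 0 were below an unadjusted p of 0.05. The lowest p values there belonged to the tubulin cofactors TBCB (−0.39, adjusted p = 0.308) and TBCC (0.50, adjusted p = 0.335). Among 17 mitochondrial chaperones and proteases, 1 was lower and 0 higher at an unadjusted p under 0.05, and DNAJC15 (−0.51, adjusted p = 0.154) and DNAJA3 (−0.31, adjusted p = 0.361) had the smallest p values.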

How the data were processed

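RNA of MCF10A cells (6 libraries, 3 per group) was profiled with the QuantSeq forward 3′ kit. The authors deposited raw read counts per Entrez gene. The submitters' processing notes name cutadapt 4.2, Bowtie2 2.3.5.1 and hg19, and the annotation and strand setting of the counting are not given in the sources used here. Groups and replicate numbers followed the description field, and the titles give other replicate numbers for some libraries. The study's methods call the replicates of its RNA sequencing biological, while the labels do not say that these libraries came from separate cultures, so p-values measure the spread between these samples.

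Counts were tested with edgeR 4.0.16 (R 4.3.3): filterByExpr with a minimum count of 10 (12510 of 23459 genes kept), TMM scaling, quasi-likelihood F test on group, and Benjamini-Hochberg adjustment with a threshold of 0.05. The SE is the log2 fold change divided by the square root of F. Symbols came from RefSeq and matched 23308 genes. Pairs are the libraries with the same replicate number in the description. Their deviations from the group means correlated (r = 0.416, 0.345 and 0.129 for replicates 1, 2 and 3). Libraries of unlike number were not compared, so these values do not show that the pairing is right. The numbering of the titles was not used as a block. Alternatives were DESeq2 1.42.0, other scaling, filters and dispersion, the block, the titles' groups, and leaving out libraries. The test of replicate numbers, the counts of control spread and the printed promoter windows were chosen after seeing the data. The scripts were tested on simulated data.

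The 41 genes and all lists were chosen with earlier results of these data known. Values per library are given for genes called in the test, with the block or without siCtrl replicate 2, for the 5 highest and 5 lowest fold changes, for named gene pairs, HSF1 and CCT, and for the 2 smallest p-values of each related list. The other library values and BAG2 were added after their values were seen.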

Additional observations from a re-analysis of the deposited data

How the results depend on the processing

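The test of all genes called 245 of 12510 with all 6 libraries, lower and higher together. DESeq2 called 578 of 19181, some of which had no adjusted p. Without a filter on low counts, 556 of 19181 were called. Library size alone gave 238 of 12510, robust dispersion 276 of 12510 and the replicate block 1263 of 12510. The groups of the titles gave 0 of 12510. With the groups of the titles, the smallest adjusted p of a chaperone gene in the edgeR test was 0.898. With both replicate 2 libraries left out, 1183 of 12729 genes were called. With 1 library left out, between 16 of 12683 (without siCtrl replicate 3) and 1579 of 12836 (without siCtrl replicate 2) were called. Without siYAP/TAZ replicate 2, 71 of 12828 were. Of the chaperone genes, 0 were lower and 0 higher in the test itself (10 and 2 at an unadjusted p under 0.05). Lower calls numbered 2 with DESeq2 (HSP90AB1 and PFDN2), 1 each with library size alone, without the filter and with robust dispersion (PFDN2), 6 with the replicate block, 7 with both replicate 2 libraries left out, and 0 to 12 with 1 library left out. The 12 came without siCtrl replicate 2. Higher calls numbered 1 (HSPB1) with DESeq2, without the filter, with the block and with both replicate 2 libraries left out, and 0 to 1 with 1 library left out (1 without siCtrl replicate 2 or siYAP/TAZ replicate 2). The median log2 fold change stayed below 0 in all settings run, between −0.37 and −0.07 with 1 library left out. The cause of these differences was not tested.

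Some fold changes turned sign between settings. As 0 of the 39 genes were called with all 6 libraries, no called gene could have turned. BAG1 was −0.12 and PFDN4 0.066 with the groups of the titles. DNAJA1 was 0.0061 with a mean of at least 50 counts and 0.058 with the block. PFDN1 was −0.0062 with DESeq2, −0.00043 with RLE scaling, −0.017 with library size alone and −0.0024 without the filter. With 1 library left out, CDC37, DNAJA1, DNAJA2, DNAJB1, HSPA1A, HSPA1B, PFDN1 and TRAP1 turned sign. Their lowest and highest values were −0.13 and 0.034 for CDC37, −0.30 and 0.34 for DNAJA1, −0.079 and 0.14 for DNAJA2, −0.25 and 0.059 for DNAJB1, −0.59 and 0.071 for HSPA1A, −0.44 and 0.37 for HSPA1B, −0.023 and 0.030 for PFDN1, and −0.34 and 0.080 for TRAP1. The low value of HSPA1A, without siCtrl replicate 2, is the only call among them. At 3175149 to 4317286 counts per library, 2 of the 41 genes had too few counts to test.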

Other observations

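The endoplasmic reticulum chaperones, which fold secreted and membrane proteins, were not among the genes described above. In 22 tested genes, 15 had log2 fold changes below 0 with a median of −0.16, and 0 passed the test. At an unadjusted p under 0.05, 5 were lower and 0 higher, where 9.27% and 8.4% of all genes were, and with the block 2 were lower and 0 higher, where 5.44% and 4.66% were. SERPINH1 (HSP47, the collagen chaperone) was at 97.1, 71.9 and 69.9 CPM in siCtrl and at 53.5, 52.6 and 43.2 in siYAP/TAZ, without overlap, a log2 fold change of −0.68 ± 0.17 (edgeR adjusted p = 0.0812; 0.0109 with the block). FKBP14, a prolyl isomerase that also acts on collagen, was at 47.7, 58.3 and 53.5 CPM against 33.8, 42.0 and 27.7 (−0.63 ± 0.18, adjusted p = 0.115; 0.0267 with the block). In both genes every knockdown library lay below every control.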
